A study of Mus musculus with 24 samples.

Results

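The complement genes described here are C1ra, C1s1, C4b, C3 and Cfb, and the complement inhibitors are Serping1, Cd55 and Cd59a. These 8 genes were taken by symbol from the table of estimated counts, which listed 17696 genes. MIN6 is a β cell line grown from a mouse insulinoma. All cells were MIN6 cells transduced with a lentiviral vector, selected with puromycin and expanded from picked single clones. Scr cells carried a scrambled sequence, ZIP cells an inhibitor of miR-146a-5p, and OE cells a vector that overexpressed miR-146a-5p. Scr and ZIP shared the miRZip backbone with copGFP as a reporter, whereas OE used the shMIMIC vector with Turbo RFP. The effects of the microRNA, of the clone and, for OE, of the vector therefore cannot be told apart. Each line was cultured without cytokines (Scr, ZIP and OE) or, marked +Cy, for 24 h with IFNγ at 100.0 ng/ml, TNFα at 10 ng/ml and IL-1β at 5 ng/ml. There were 4 mRNA libraries in each of these 6 groups, 24 in all. No source says that the 4 libraries of a group came from separate cultures, so p values measure the spread between these libraries, which may be technical.

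Complement is a set of plasma and cell surface proteins that tags and lyses targets and recruits inflammatory cells. The classical route starts when C1q binds a target, the protease C1r activates the protease C1s, and C1s cuts C4 and C2. The lectin route reaches the same substrates through other proteases, and the alternative route amplifies cleavage of C3 with factor B. Serping1 encodes the C1 inhibitor, a secreted serpin that blocks C1r and C1s, while Cd55 and Cd59a encode surface proteins that protect host cells from C3 convertases and from the membrane attack complex. The liver makes most circulating complement, and other tissues make some of it locally, often under IFNγ, IL-1β or TNFα.

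Promoter sequences from RefSeq (GRCm38.p6), spanning 250 bases before to 50 bases after the transcription start, were found for 5 of the 8 genes. The entries of C4b, Cfb and Serping1 were missing. Shown are C1ra, C1s1 and C3, whose RNA rose together under cytokines, and Cd59a, whose RNA stayed at the detection limit in most groups. Capitals mark matches to the gamma-activated site (TTCNNNGAA), a motif of IFNγ-responsive promoters, or to the core of the interferon-stimulated response element (GAAANNGAA).
C1ra, chr6:124512371-124512670, plus strand: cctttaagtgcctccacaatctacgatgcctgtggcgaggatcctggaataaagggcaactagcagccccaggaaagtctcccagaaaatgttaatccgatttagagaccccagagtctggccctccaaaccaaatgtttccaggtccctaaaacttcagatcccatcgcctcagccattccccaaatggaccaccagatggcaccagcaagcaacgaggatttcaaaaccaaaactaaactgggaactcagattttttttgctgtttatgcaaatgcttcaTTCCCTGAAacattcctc
C1s1, chr6:124542310-124542609, minus strand: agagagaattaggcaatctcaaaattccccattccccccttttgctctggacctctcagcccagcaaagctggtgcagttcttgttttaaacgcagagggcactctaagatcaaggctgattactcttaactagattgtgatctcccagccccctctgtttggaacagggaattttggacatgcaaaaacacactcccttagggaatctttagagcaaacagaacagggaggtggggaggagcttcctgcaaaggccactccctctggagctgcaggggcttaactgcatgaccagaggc
C3, chr17:57228087-57228386, minus strand: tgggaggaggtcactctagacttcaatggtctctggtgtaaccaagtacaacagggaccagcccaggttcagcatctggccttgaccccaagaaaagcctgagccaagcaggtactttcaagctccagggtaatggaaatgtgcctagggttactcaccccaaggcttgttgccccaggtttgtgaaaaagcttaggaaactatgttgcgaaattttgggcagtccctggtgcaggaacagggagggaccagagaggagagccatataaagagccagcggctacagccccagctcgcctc
Cd59a, chr2:104095551-104095850, plus strand: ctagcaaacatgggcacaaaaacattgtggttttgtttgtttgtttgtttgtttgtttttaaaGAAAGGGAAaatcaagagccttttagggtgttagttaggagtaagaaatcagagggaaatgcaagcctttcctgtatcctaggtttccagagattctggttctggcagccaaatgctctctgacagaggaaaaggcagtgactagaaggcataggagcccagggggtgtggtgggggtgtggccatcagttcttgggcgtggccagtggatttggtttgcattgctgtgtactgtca
C1ra held a gamma-activated site that began 32 bases after the start, and Cd59a an interferon element core that began 187 bases before it. C1s1, C3 and Cd55 held neither, and none of the 5 genes held a κB motif in this window. Both strands were searched, and the motifs do not overlap each other in these promoters. Among 32851 mouse promoters of the same length, 8.3% held the gamma-activated site, 8.56% the interferon element core and 4.51% the κB motif. These matches describe the letters of the windows and do not show binding.

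In the qRT-PCR of the study, untreated OE cells held more miR-146a-5p than Scr cells, while no change was seen in ZIP cells. This microRNA, at which the ZIP and OE vectors were aimed, pairs with target RNAs through its seed (bases 2 to 8, in capitals).
mmu-miR-146a-5p, chr11:43374435-43374456, minus strand: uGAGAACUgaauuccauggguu
Its complement, AGTTCTC, was absent from the longest annotated 3′ UTR of all 8 genes, which ranged from 43 bases in C3 to 1285 in Cd55. Of 21028 mouse genes with a 3′ UTR, 11.2% held it.

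Between 26657792 and 37168232 reads were assigned to genes per library, so 1 read was worth 0.0269 to 0.0375 CPM (reads scaled to a common library size) before TMM scaling. Levels below are CPM after TMM scaling. Ins2, an insulin gene, ranged from 8501 to 19882 CPM. None of 10 β cell markers was at 0 throughout a group, and their sum was 18756 to 43788 CPM, highest in OE. Other markers of that list varied more in relative terms, such as Ins1 (528 to 8709 CPM) and Slc30a8 (6.25 to 402 CPM). Slc2a2 ranged from 9.43 to 171 CPM and Ucn3 from 0.0322 to 21.2 CPM. The 4 markers of other islet cells summed to 9.09 to 369 CPM. In any library, 7 blood cell markers summed to at most 5.2 CPM, 6 hepatocyte markers to at most 8.09 CPM and 2 endothelial markers to at most 4.38 CPM. The 6 fibroblast markers, Col1a1, Col1a2, Col3a1, Dcn, Lum and Pdgfra, summed to 58.7 CPM in Scr+Cy library 1, 54.0 CPM in ZIP library 1 and 18.9 CPM in Scr library 1, but to between 0.537 and 7.95 CPM in the other 21. Several results on Cd55 and the calls of Cd59a below turn on these libraries. In bulk RNA, a change in the number of expressing cells and a change in RNA per cell cannot be told apart.

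**Figure D1:**
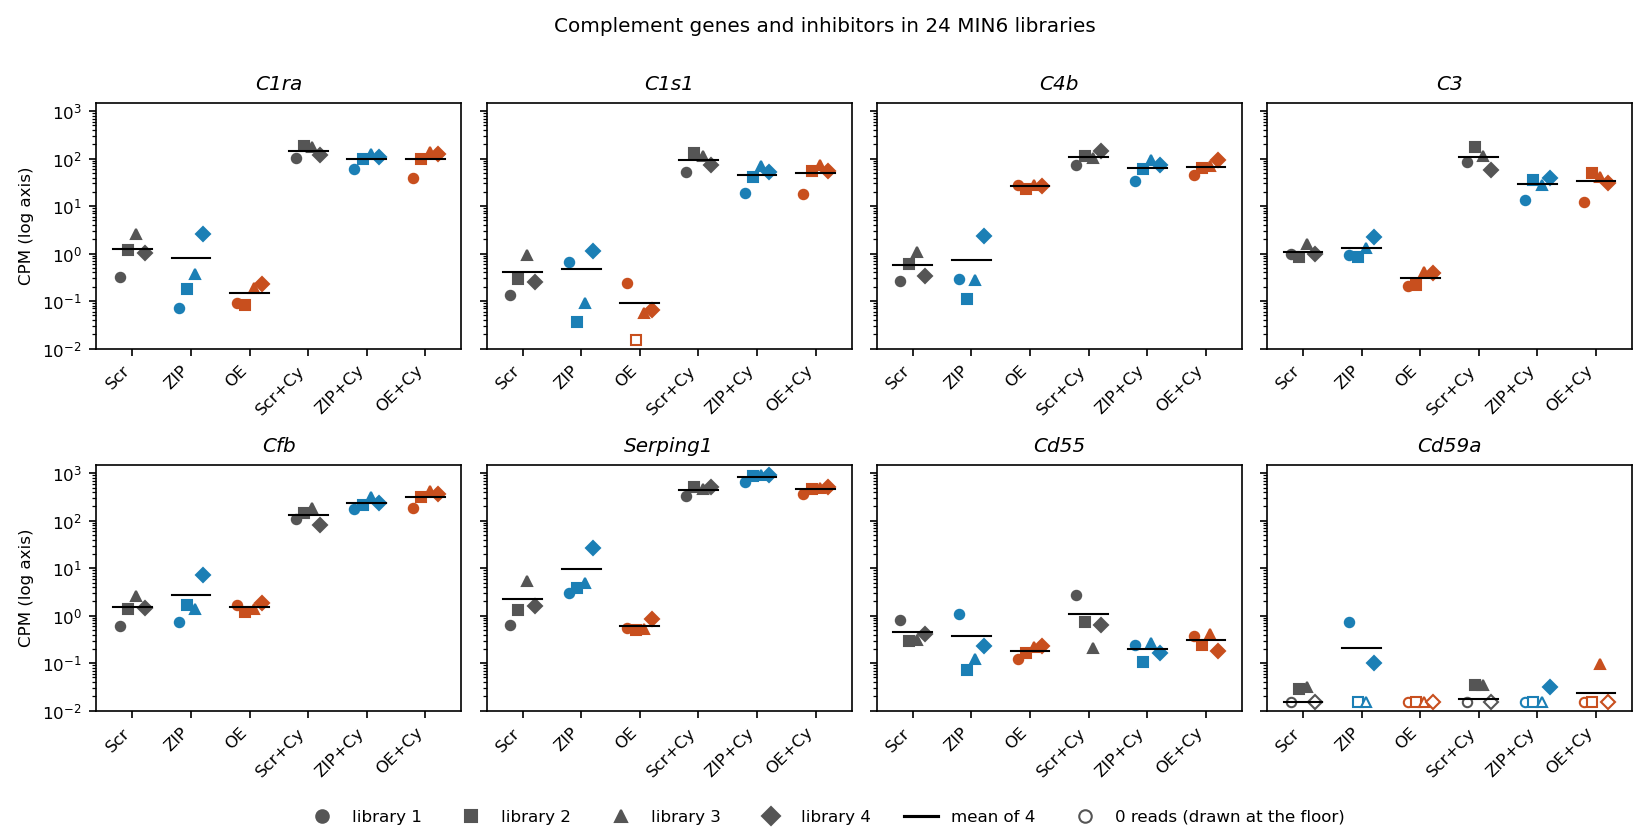
CPM (log axis) of the 8 genes in each of the 24 libraries. Symbols give the library number, horizontal lines the mean of 4, and open symbols libraries with 0 reads, drawn at the floor. C1ra, C1s1, C4b, C3, Cfb and Serping1 were higher in every treated library than in every untreated library of the same line, while Cd55 stayed at or below 2.77 CPM and Cd59a at or below 0.732 CPM.

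The first question was how the genes responded to cytokines within each line. C1ra, C1s1, C4b, C3, Cfb and Serping1 rose in all 3 lines. Without cytokines their group means were at most 9.52 CPM, C4b in OE excepted. Calls required a 1.5-fold difference or more together with p under 0.05, unadjusted, in edgeR's quasi-likelihood test. By this rule 6 of 8 genes were called higher in Scr+Cy versus Scr, where 7.88% of all genes were. The same 6 were called higher in ZIP+Cy versus ZIP (7.28% of all genes) and in OE+Cy versus OE (13.0% of all genes). The median log2 fold change of the 8 genes was 6.74 in Scr, 6.41 in ZIP and 7.24 in OE, beside medians over all genes of 0.0023, −0.0066 and 0.024. Adjusted p values below are Benjamini-Hochberg values from edgeR over all genes.

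C1ra and C1s1 encode the proteases of the C1 complex and lie 6.903 kb apart on chromosome 6 (C1ra at chr6:124512621-124523440, C1s1 at chr6:124530344-124542359, mm10). In Scr, C1ra was at 0.324, 1.21, 2.53 and 1.05 CPM, and Scr+Cy libraries held 105, 183, 177 and 122 CPM. The lowest treated library lay far above the highest untreated one, a 117-fold rise (log2 fold change 6.87 ± 0.50 (SE, n = 4 per group), adjusted p = 1.1e-10 in edgeR). In ZIP+Cy it reached 60.3 to 126 CPM from 0.0732 to 2.62 CPM (6.90 ± 0.53), and in OE+Cy 38.3 to 140 CPM from 0.0816 to 0.229 CPM (9.39 ± 0.66). The OE libraries held only 3 to 7 C1ra reads without cytokines, so the size of that fold rests on few reads.

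C1s1 followed the same order of groups as C1ra under cytokines, with the Scr line highest. Scr libraries held 0.135, 0.287, 0.938 and 0.248 CPM, and with cytokines 53.4, 132, 111 and 73.9 CPM, a log2 fold change of 7.87 ± 0.60. The rises in ZIP (6.54 ± 0.60) and OE (9.11 ± 0.75) started from 1 to 34 and from 0 to 8 reads per library. Without OE library 1, which held 8 reads, the OE value was 10.2. Per kb of exon, C1ra exceeded C1s1 in each of the 12 treated libraries, by 1.46 to 3.43 times.

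C4b encodes complement C4, the source of the fragment that anchors the classical and lectin C3 convertase (chr17:34728381-34743897). In Scr it rose from 0.27, 0.604, 1.09 and 0.341 CPM to 73.8, 114, 104 and 145 CPM (log2 fold change 7.58 ± 0.47, adjusted p = 4.79e-12 in edgeR). In ZIP it rose from 0.293, 0.109, 0.279 and 2.32 CPM to 33.5, 59.5, 94.2 and 72.0 CPM (6.40 ± 0.46). OE was different. Untreated OE libraries already held 28.1, 22.6, 27.3 and 26.3 CPM, and with cytokines they held 45.1, 64.9, 69.3 and 93.3 CPM (1.39 ± 0.30, adjusted p = 0.00052 in edgeR). The OE and OE+Cy libraries did not overlap, but the 2.61-fold rise was small beside the 191-fold rise in Scr.

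C3, the component on which all routes converge (chr17:57203967-57228136), rose in Scr from 0.971, 0.862, 1.63 and 0.96 CPM to 85.0, 173, 113 and 56.3 CPM (log2 fold change 6.60 ± 0.47). In ZIP it rose from 0.951, 0.839, 1.33 and 2.25 CPM to 13.3, 34.7, 28.4 and 38.4 CPM (4.40 ± 0.47, adjusted p = 8.38e-08 in edgeR). In OE it rose from 0.212, 0.218, 0.414 and 0.393 CPM to 12.3, 49.8, 40.5 and 30.9 CPM (6.74 ± 0.57). The fitted rise of C3 in ZIP was 21.10-fold, against 97-fold in Scr and 107-fold in OE.

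Cfb encodes factor B, the protease of the alternative pathway convertase (chr17:34856374-34862514). In Scr it went from 0.62, 1.41, 2.63 and 1.49 CPM to 109, 146, 190 and 80.1 CPM with cytokines, a log2 fold change of 6.44 ± 0.46. In ZIP+Cy it stood at 177, 210, 319 and 238 CPM (6.41 ± 0.44 against ZIP), and in OE+Cy at 187, 318, 422 and 366 CPM (7.73 ± 0.48 against OE). Untreated Cfb was at 1.17 to 1.87 CPM in OE and 0.732 to 7.26 CPM in ZIP. All groups with cytokines lay apart from all groups without.

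Serping1, the C1 inhibitor gene (chr2:84765360-84775429), reached the highest level of the 8 genes per kb of exon in each treated group, with means of 196 ± 35.1 CPM per kb (Scr+Cy), 361 ± 57.2 (ZIP+Cy) and 198 ± 27.5 (OE+Cy; SD, n = 4). In Scr it rose from 0.647, 1.32, 5.47 and 1.61 CPM to 338, 514, 459 and 508 CPM (log2 fold change 7.68 ± 0.57). In ZIP it rose from 3.0, 3.87, 4.99 and 26.2 CPM to 647, 858, 923 and 933 CPM (6.46 ± 0.51), and in OE from 0.544, 0.49, 0.524 and 0.851 CPM to 368, 467, 491 and 514 CPM (9.59 ± 0.65). The inhibitor of the C1 proteases thus rose alongside both proteases in every line. DESeq2 gave no adjusted p value for Serping1 in any comparison.

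The rises in ZIP and Scr depended in size on 1 untreated library each. Without ZIP library 4 the log2 fold change in ZIP was 8.80 for C1ra, 8.11 for C4b, 7.72 for Serping1, 7.55 for Cfb and 7.45 for C1s1. Without Scr library 3 the log2 fold change in Scr was 8.69 for C1s1 and 8.60 for Serping1. All calls of these 6 genes in the 3 responses held when each library was left out in turn.

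**Figure D2:**
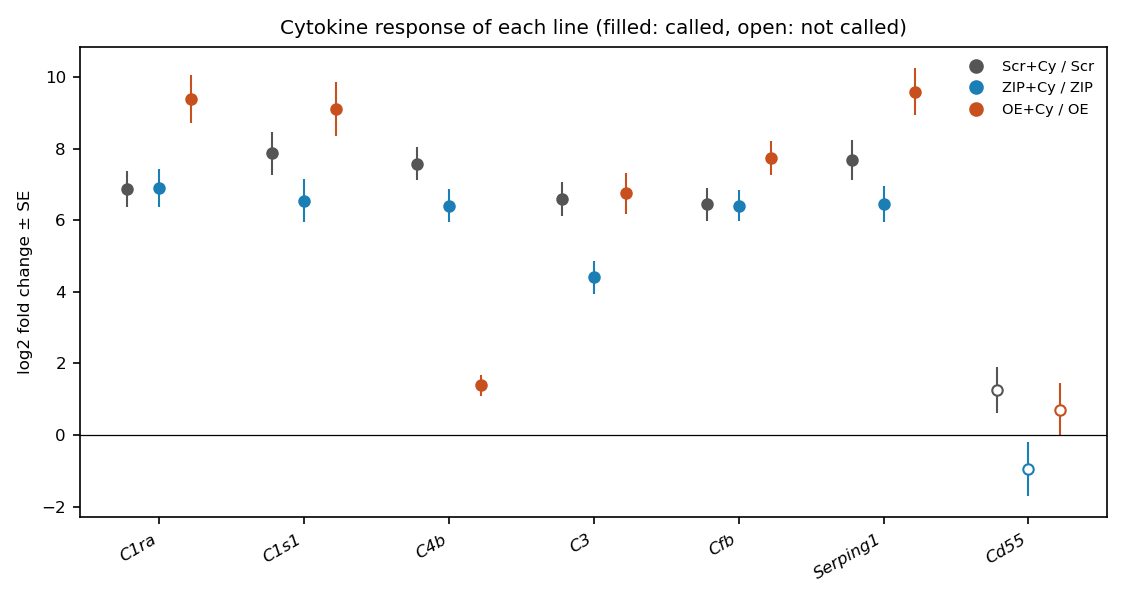
Log2 fold change with its SE for treated against untreated libraries of each line, for 7 genes. Filled points were called (fold of at least 1.5 and p under 0.05) and open points were not. C4b in OE lies at 1.39, far below its values in Scr (7.58) and ZIP (6.40). Cd59a is left out because it was at the detection limit in every group but ZIP, where library 1 held 20 reads. On that library alone it was called lower in ZIP+Cy than in ZIP.

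The membrane inhibitors did not share this rise. Cd55 encodes decay-accelerating factor, which breaks up C3 convertases (chr1:130439026-130462744). It held 30, 10, 10 and 13 reads in Scr, 90, 21, 6 and 21 in Scr+Cy, 30, 2, 4 and 7 in ZIP and 7, 3, 7 and 5 in ZIP+Cy. The OE libraries held 4, 6, 8 and 7 reads and the OE+Cy libraries 11, 7, 13 and 6. Library 1 of Scr, ZIP and Scr+Cy, the libraries with the most fibroblast marker RNA, stood highest in their groups, and the part of that RNA in the values of Cd55 was not tested. Cd55 was called in none of the 3 cytokine responses (log2 fold change 1.25 ± 0.64 in Scr, adjusted p = 0.201, −0.95 ± 0.74 in ZIP, adjusted p = 0.383, and 0.71 ± 0.74 in OE, adjusted p = 0.47, all from edgeR). With the replicate number as a block, Cd55 was called higher in Scr+Cy (1.07, adjusted p = 0.127), and without Scr+Cy library 1 the value was 0.19. It was called without Scr library 1 (1.69), ZIP library 1 (1.23), Scr+Cy library 3 (1.59) or Scr+Cy library 4 (1.44). In ZIP the value turned to 0.40 without ZIP library 1.

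Cd59a encodes an inhibitor of the membrane attack complex (chr2:104095801-104115410). It was at the detection limit, 3 reads or fewer in every library, in 5 of 6 groups. The exception was ZIP, with 20 reads in library 1, 0 in libraries 2 and 3, and 3 in library 4. OE held 0 reads in all 4 libraries, Scr and Scr+Cy at most 1 per library, ZIP+Cy at most 1 and OE+Cy at most 3. On library 1 alone, which held 54.0 CPM of fibroblast markers, Cd59a was called lower in ZIP+Cy than in ZIP (adjusted p = 0.0473 in edgeR). Without that library it was not called (adjusted p = 0.527), so no difference in Cd59a was detectable outside 1 library.

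The next question was how the lines differed without cytokines. C4b was the outstanding difference in OE. With 931, 831, 989 and 804 reads in OE against 10, 21, 35 and 11 in Scr, it was 45.7-fold higher (log2 fold change 5.51 ± 0.48, adjusted p = 7.48e-10 in edgeR). The lowest OE library lay above the highest untreated library of both other lines. Leaving out each library in turn gave values from 5.26 to 6.03. Of the 8 other genes within 100 kb of C4b, a window chosen after values were seen, 0 were called higher and 2 lower in OE, from 0.28 for Atf6b to −0.72 for Skiv2l. C4a, the close paralog with which reads of C4b could be divided, held 5 to 9 reads in OE and 2 to 15 in Scr. Of the 24 C4b values, 21 were not whole numbers, so some reads were shared between genes or transcripts.

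C1ra, C3 and Serping1 were lower in untreated OE than in Scr, which, together with C4b, made 1 of 8 genes called higher, where 11.3% of all genes were, and 3 of 8 called lower, where 14.4% were. C1ra fell by 3.06 ± 1.13 on the log2 scale (adjusted p = 0.0273 in edgeR), from 12 to 81 reads in Scr to 3 to 7 in OE, without overlap. C3 was at 0.309 ± 0.109 CPM in OE and 1.10 ± 0.35 CPM in Scr (SD, n = 4), a difference of −1.82 ± 0.86 on the log2 scale with an adjusted p of 0.083. Serping1 was at 0.602 ± 0.168 CPM in OE and 2.26 ± 2.18 CPM in Scr (−1.89 ± 0.82, adjusted p = 0.0605 in edgeR). All 3 calls were lost without Scr library 3, where the edgeR values were −2.47 for C1ra (adjusted p = 0.111), −1.56 for C3 (adjusted p = 0.185) and −0.95 for Serping1 (adjusted p = 0.394). Without both Scr library 3 and ZIP library 4, chosen after seeing the data, Serping1 was called lower (−0.97, adjusted p = 0.0418 in edgeR). C1ra was also called in that fit, and C3 was not (−1.58, adjusted p = 0.18 in edgeR). With single libraries left out, the call of Serping1 was also lost without OE library 1, 2 or 3. That of C3 was lost in 11 of the 24 fits that left out a library (Scr 1, 3 or 4, any OE library, ZIP 3, ZIP+Cy 3, and OE+Cy 3 or 4). C1s1 (−2.10 ± 1.60, adjusted p = 0.291), Cd55 (−1.29 ± 0.71, adjusted p = 0.139) and Cfb (0.011 ± 0.630) were not called in edgeR. DESeq2 called C1s1 lower in OE (−2.15, adjusted p = 0.0288). Cd55 did not overlap between OE and Scr and was called without ZIP library 1 (adjusted p = 0.0782) or Scr+Cy library 1 (adjusted p = 0.085).

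In untreated ZIP and Scr, most of the 8 genes were low and overlapped. Serping1 and Cd59a were called higher in ZIP, 2 of 8 genes where 7.97% of all genes were, and 0 were called lower. Serping1 held 82, 106, 161 and 780 reads in ZIP and 24, 46, 175 and 52 in Scr, and the groups overlapped. Its log2 fold change was 2.11 ± 0.55 (adjusted p = 0.00508 in edgeR). It was 0.85 without ZIP library 4 (adjusted p = 0.13 in edgeR) and still called. The call also held with both ZIP library 4 and Scr library 3 left out, a choice made after seeing the data. The remaining libraries lay apart, at 3.0 to 4.99 CPM in ZIP and 0.647 to 1.61 CPM in Scr. Without ZIP library 4 alone, C1ra was called lower (−2.497, adjusted p = 0.0839). The differences of C1s1, C4b, C3 and Cfb, none of them called, then turned from positive to negative. Without ZIP library 1, Cfb was called higher (1.18, adjusted p = 0.137) and Cd55 lower (−1.63, adjusted p = 0.0937). The call of Cd59a (adjusted p = 0.0563) rested on the 20 reads of ZIP library 1 and was lost without it (adjusted p = 0.664).

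ZIP library 4 was the highest untreated ZIP library for all 6 inducible genes, and Scr library 3 the highest Scr library. The same libraries were highest in Gbp2, which encodes an interferon-induced GTPase, and Cxcl10, which encodes a chemokine. Gbp2 was at 0.0366, 2.55, 4.06 and 37.6 CPM in ZIP and at 0.324, 3.10, 12.2 and 3.62 CPM in Scr. As a share of the cytokine-treated library with the same line and number, ZIP library 4 held 2.22% to 5.86% of each of the 6 genes, 2.79% of Gbp2 and 2.74% of Cxcl10. In Scr library 3 the shares were 0.843% to 1.44% for the 6 genes, 1.03% for Gbp2 and 1.14% for Cxcl10. These shares were not the highest of the line for every gene. ZIP library 1 held 7.15% of C3 and 3.57% of C1s1, and Scr library 4 held 1.71% of C3 and 1.86% of Cfb. Irf1, a transcription factor of the interferon response, was at 25.0 to 36.1 CPM in ZIP, highest in library 4, and at 25.6 to 30.1 CPM in Scr. The source of this signal was not tested.

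**Figure D3:**
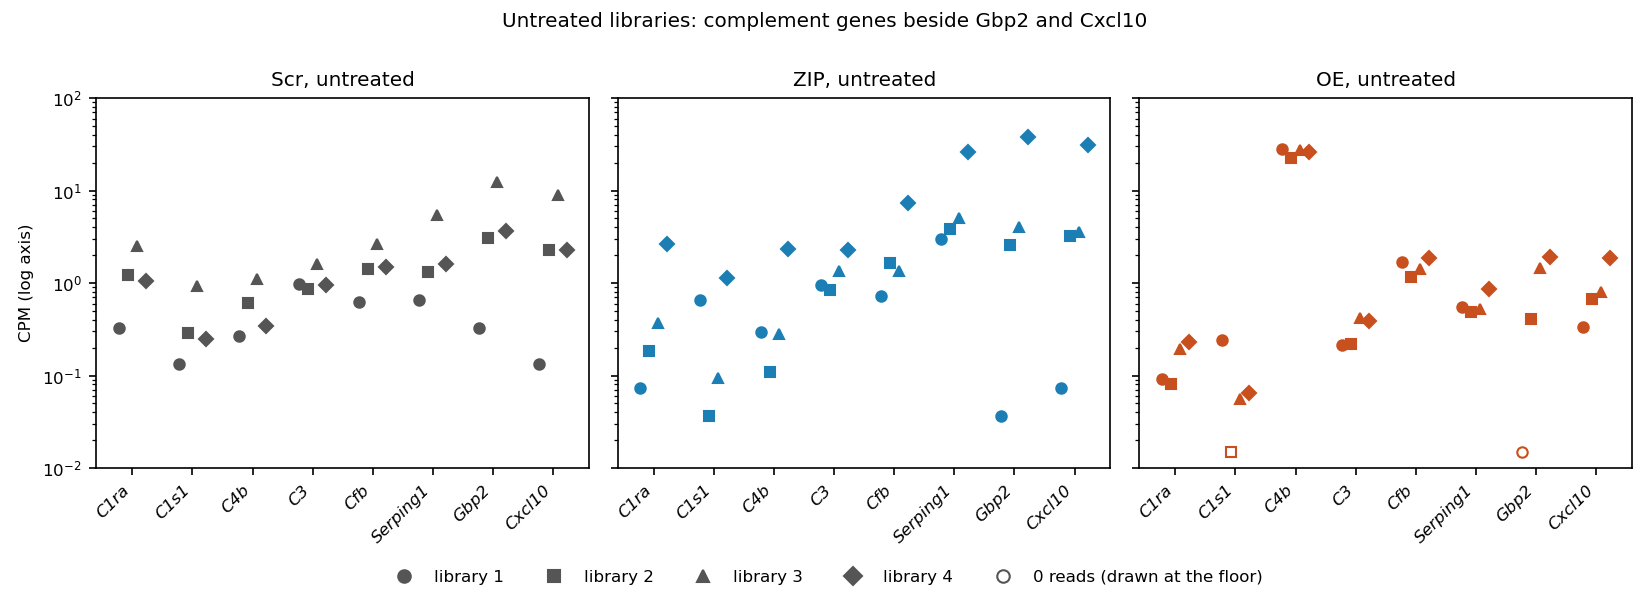
CPM (log axis) of the 6 inducible genes, Gbp2 and Cxcl10 in the 12 untreated libraries, 1 panel per line. Symbols give the library number and open symbols 0 reads, drawn at the floor. ZIP library 4 and Scr library 3 stand highest for each gene in their panels, and C4b at 22.6 to 28.1 CPM stands apart from the other genes in OE.

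With cytokines, both altered lines held genes called lower and genes called higher than in Scr+Cy. C3, C1s1, C4b and Cd55 were lower and Cfb higher in both comparisons, which share the Scr+Cy libraries. In ZIP+Cy, 4 of 8 genes were called lower (8.67% of all genes) and 2 higher (7.10% of all genes). In OE+Cy, 4 of 8 were called lower (14.8% of all genes) and 1 higher (13.7% of all genes). With adjusted p values under 0.05 instead, 3 were lower and 0 higher in ZIP+Cy (all genes, 1185 and 1042). In OE+Cy 3 were then lower and 1 higher (2473 and 2252). Median log2 fold changes of the 8 genes were −0.72 in ZIP+Cy (−0.66 with Cd59a, at the limit in both groups, set to 0) and −0.61 in OE+Cy, beside −0.014 and 0.0077 for all genes.

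C3 was called lower in both comparisons under every alternative run. Its Scr+Cy libraries, at 56.3 to 173 CPM, lay above all ZIP+Cy libraries (13.3 to 38.4 CPM) and all OE+Cy libraries (12.3 to 49.8 CPM). It was 3.72-fold lower in ZIP+Cy (log2 fold change −1.89 ± 0.34, adjusted p = 0.000125 in edgeR) and 3.20-fold lower in OE+Cy (−1.68 ± 0.33, adjusted p = 0.000173 in edgeR). Leaving out each library gave −2.11 to −1.56 and −1.92 to −1.34.

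The calls of C1s1 and C4b were weaker. C1s1 differed from Scr+Cy by −1.04 ± 0.37 in ZIP+Cy (adjusted p = 0.0363 in edgeR) and by −0.87 ± 0.36 in OE+Cy (adjusted p = 0.0477). C4b differed by −0.75 ± 0.29 (adjusted p = 0.0564) and −0.68 ± 0.29 (adjusted p = 0.0526). The libraries of both genes overlapped between the groups, and DESeq2 called neither gene (adjusted p from 0.326 to 0.366). In edgeR the call of C1s1 in OE+Cy was lost without Scr+Cy library 2 or 3 or OE+Cy library 1 (−0.59 without the last). That of C4b was lost without Scr+Cy library 4 or ZIP+Cy library 1 in ZIP+Cy (−0.59 and −0.52), and without Scr+Cy library 2 or 4 or OE+Cy library 1 or 2 in OE+Cy (−0.66 to −0.51). C1ra was not called in either comparison (−0.57 ± 0.34, adjusted p = 0.229, and −0.54 ± 0.34, adjusted p = 0.18, in edgeR). With the replicate number as a block, C1ra was called lower in ZIP+Cy (−0.61, adjusted p = 0.0338). In each treated group library 1 was the lowest for C1ra, C1s1, C4b and Serping1.

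Cfb was higher in OE+Cy than in Scr+Cy by 1.30 ± 0.32 on the log2 scale, 2.46-fold (adjusted p = 0.00159 in edgeR), with only the lowest OE+Cy library, at 187 CPM, below the highest Scr+Cy library, at 190 CPM. In ZIP+Cy the difference was 0.85 ± 0.32 (adjusted p = 0.0521), which DESeq2 did not call (adjusted p = 0.212) and which was lost without Scr+Cy library 4 or ZIP+Cy library 3 (0.67 in both). Serping1 was higher in ZIP+Cy, where all 4 libraries (647 to 933 CPM) lay above those of Scr+Cy (338 to 514 CPM), by 0.89 ± 0.39 (adjusted p = 0.1 in edgeR). This call was lost without Scr+Cy library 1 or 3 or ZIP+Cy library 2, 3 or 4 (0.77 to 0.89). In OE+Cy it stood at 368 to 514 CPM, and the log2 fold change to Scr+Cy was 0.017 ± 0.392. Cd55 differed by −2.47 ± 0.71 in ZIP+Cy (adjusted p = 0.0108 in edgeR) and differed by −1.83 ± 0.67 in OE+Cy (adjusted p = 0.0248), but 90 of its reads came from Scr+Cy library 1. Without that library the values were −1.41 (adjusted p = 0.132) and −0.78 (adjusted p = 0.324), and the latter was no longer called. A fit chosen after seeing the data left out library 1 of Scr, ZIP and Scr+Cy, the libraries highest in fibroblast markers. There Cd55 was called lower in ZIP+Cy (−1.42, adjusted p = 0.0257 in edgeR) but not in OE+Cy (−0.78, adjusted p = 0.139 in edgeR).

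**Figure D4:**
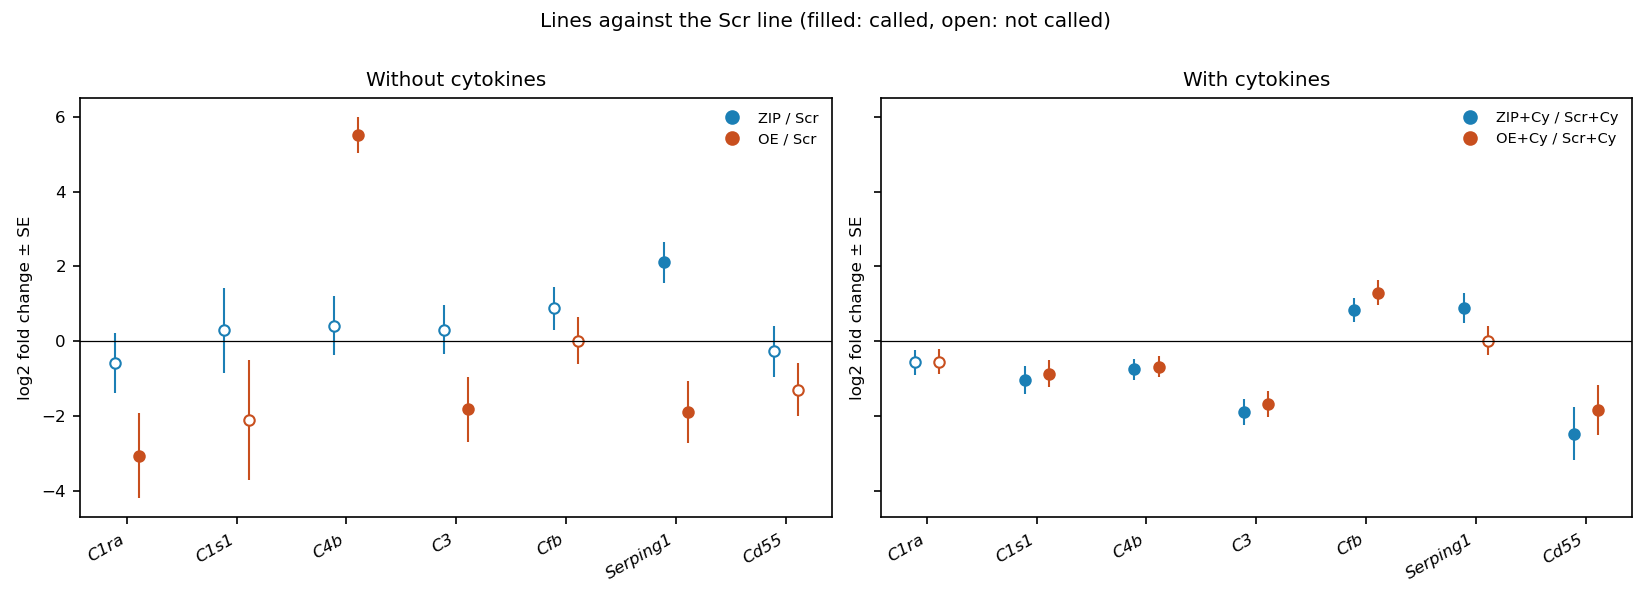
Log2 fold change with its SE of ZIP and OE against Scr, without cytokines (left) and with cytokines (right), for 7 genes. Filled points were called and open points were not. C4b in untreated OE stands at 5.51, and under cytokines C3 lies at −1.89 and −1.68.

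Ratios between genes within a treated library do not depend on its depth. They were chosen after values were seen and are given as a description. Per kb of exon, Cfb exceeded C3 by 2.33, 1.53, 3.07 and 2.59 times in Scr+Cy, by 24.3, 11.03, 20.4 and 11.3 times in ZIP+Cy, and by 27.6, 11.6, 19.0 and 21.5 times in OE+Cy. The ratio thus separated Scr+Cy from both other lines in all libraries. Serping1 exceeded C1s1 by 5.25 to 9.24 times with Scr+Cy, by 18.1 to 47.1 times with ZIP+Cy and by 9.04 to 27.1 times with OE+Cy. OE+Cy overlapped with both other groups. The ratio of C4b to C3 overlapped between all 3 groups, from 0.593 to 2.32 in Scr+Cy, 1.55 to 2.996 in ZIP+Cy and 1.18 to 3.31 in OE+Cy.

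**Figure D5:**
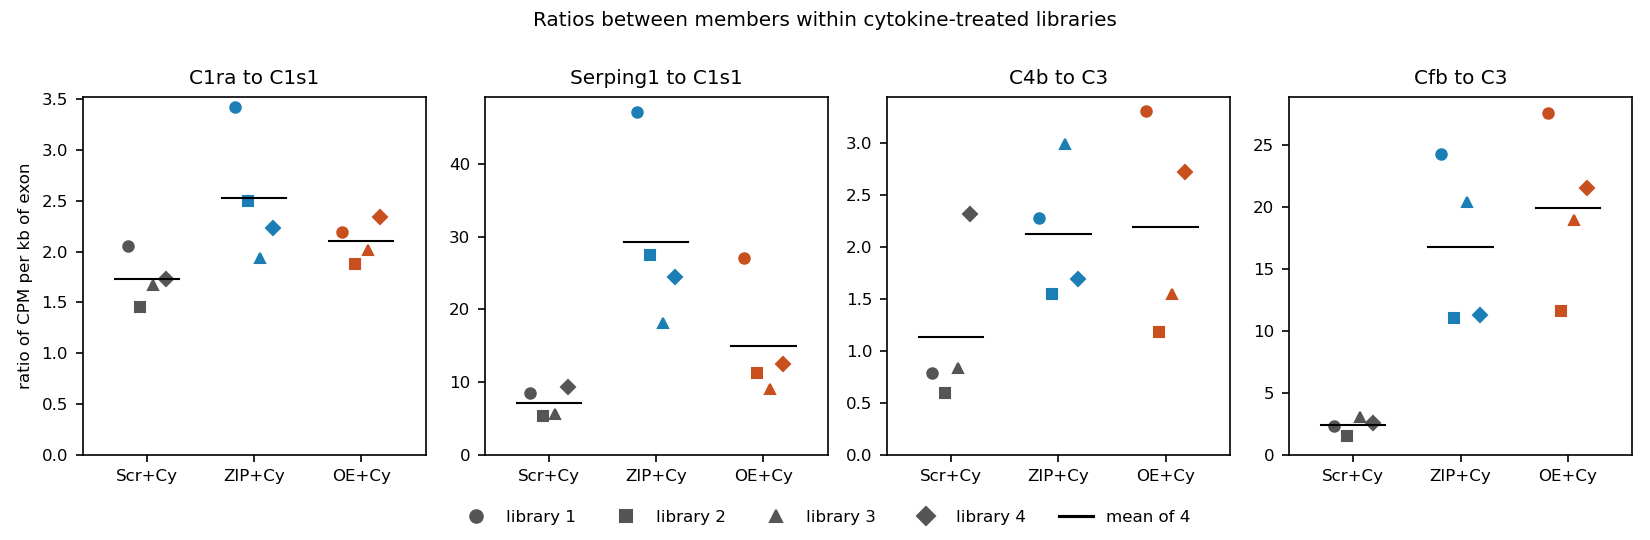
Ratio of CPM per kb of exon between pairs of genes within each of the 12 treated libraries. Symbols give the library number and lines the mean of 4. The ratio of Cfb to C3 lies between 1.53 and 3.07 in Scr+Cy and between 11.03 and 27.6 in both other lines.

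Whether a line changed the cytokine response itself was tested as an interaction, called at an adjusted p value under 0.05. In OE, 1 of 8 genes was called, where 20.0% of all genes were. This was C4b, whose response was smaller than in Scr (difference of log2 fold changes −6.19 ± 0.57, adjusted p = 1.64e-07 in edgeR). The difference was −6.70 to −5.94 when each library was left out. It equals the treated difference of OE from Scr (−0.68) less the untreated one (5.51). The high untreated C4b of OE therefore makes up most of it. The differences of C1ra (2.51 ± 1.22, adjusted p = 0.16) and Serping1 (1.91 ± 0.92, adjusted p = 0.157) were not called, and Serping1 was called without ZIP library 4 (1.90, adjusted p = 0.0196) and with only the 4 groups compared in the fit (1.88, adjusted p = 0.0378). In ZIP, 0 of 8 genes were called by edgeR, where 0.0565% of all genes were. DESeq2 called 0 of the members it tested, which left out Serping1, and 41 genes in all. At an unadjusted p value under 0.05 in edgeR there were 2 members, beside 1137 of 17696 genes, namely C3 (−2.20 ± 0.74, adjusted p = 0.566) and Cd55 (−2.20 ± 0.98, adjusted p = 0.737). The Cd55 value was −0.83 without ZIP library 1, −1.15 without Scr+Cy library 1 and −0.24 without the 3 libraries highest in fibroblast markers.

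Both treated altered lines were also set against untreated Scr, the control of the study. The same 6 genes were called higher in ZIP+Cy versus Scr (12.2% of all genes) and in OE+Cy versus Scr (18.4% of all genes), and 0 members were called lower. With only the groups compared in the fit, Cd55 was called lower in ZIP+Cy (−1.22, adjusted p = 0.0719 in edgeR). Log2 fold changes ran from 4.71 for C3 to 8.57 for Serping1 in ZIP+Cy and from 4.92 for C3 to 7.74 for Cfb in OE+Cy. Here C4b stood at 6.90 in OE+Cy, since the comparison does not use the untreated OE libraries.

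In the order of group means, treated groups came above untreated groups for the 6 inducible genes. For C1ra, C1s1, C4b and C3 the order was Scr+Cy, OE+Cy and ZIP+Cy, with means of 147, 101 and 99.1 CPM for C1ra. Neighbours in this order overlapped, except Scr+Cy above OE+Cy for C3. For Cfb the order was OE+Cy, ZIP+Cy and Scr+Cy, with means of 323, 236 and 131 CPM and overlap between neighbours. For Serping1 it was ZIP+Cy, OE+Cy and Scr+Cy, with means of 840, 460 and 455 CPM, of which only ZIP+Cy lay apart.

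Of 53 complement genes in a list of the wider pathway, 42 were in the table. Of the 34 that were not members, 25 stayed under 1 CPM in every group mean, and 11 listed genes were not analysed here. In Scr+Cy versus Scr, 7 of the 34 were called higher and 2 lower, beside 1395 and 472 of all 17696 genes. In ZIP+Cy versus ZIP the counts were 5 and 2 (all genes, 1289 and 922), and in OE+Cy versus OE 6 and 4 (2300 and 1420). In ZIP versus Scr they were 4 and 2 (1411 and 1223), and in OE versus Scr 3 and 4 (1991 and 2549). In ZIP+Cy versus Scr+Cy they were 4 and 4 (1257 and 1534), and in OE+Cy versus Scr+Cy 3 and 8 (2429 and 2623). In ZIP+Cy versus Scr they were 4 and 3 (2162 and 1679), and in OE+Cy versus Scr 6 and 5 (3255 and 2796). In the interactions they were 0 and 0 for ZIP (9 and 1) and 2 and 2 for OE (1706 and 1831). Removing genes of low counts by filterByExpr left 20 listed genes, members included, and 14535 genes in all. Of the listed genes that were not members, 5 were then called in Scr+Cy versus Scr, in either direction, beside 1489 of all genes. In ZIP+Cy versus ZIP 3 were called (1890 of all genes), and in OE+Cy versus OE 6 (3226 of all genes).

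C2, the substrate of C1s, lies 87 bases from Cfb and reached at most 6.82 CPM. It held 0 to 1 read per library in Scr, 10 to 13 in Scr+Cy, 0 to 1 in ZIP and 15 to 26 in ZIP+Cy. In OE it held 2 to 4 reads and in OE+Cy 51, 129, 216 and 166, above every Scr+Cy library (log2 fold change 3.58 ± 0.37, adjusted p = 1.54e-08 in edgeR). C1rl, a C1r-like protease gene, rose with cytokines in Scr (3.13 ± 0.37) and ZIP (2.52 ± 0.36), to means of 4.58 and 4.12 CPM. In OE it held 0, 1, 0 and 1 reads and in OE+Cy 18, 61, 89 and 78, also called higher (adjusted p = 6.25e-09 in edgeR). OE was at the detection limit, so no fold is given. The paralogs of C1ra and C1s1, C1rb and C1s2, stayed at 11 reads or fewer per library.

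C1qa, which encodes a chain of the recognition molecule C1q, averaged 22.6 ± 3.92 CPM in Scr, and 17.97 ± 3.29 CPM was the Scr+Cy mean (SD, n = 4). It was lower in OE (10.9 ± 3.55 CPM) and lowest in OE+Cy (4.15 ± 0.691 CPM), and fell with cytokines in OE (log2 fold change −1.40 ± 0.19, adjusted p = 1.36e-06 in edgeR). ZIP averaged 15.7 ± 1.18 CPM and ZIP+Cy 10.6 ± 1.48 CPM. C1qa was called lower in ZIP+Cy than in Scr+Cy (−0.77, adjusted p = 0.0014 in edgeR), as it was in OE+Cy (−2.12, adjusted p = 9.73e-10 in edgeR). C1qb and C1qc, the other chains, were at 0 to 5 reads in most libraries, with 20 to 32 reads in single libraries. Hc (C5) stayed at 2 reads or fewer per library. Cd93, a receptor first described as binding C1q, fell with cytokines in Scr (−0.72 ± 0.28, adjusted p = 0.0858 in edgeR), ZIP (−1.60 ± 0.27) and OE (−2.15 ± 0.30).

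Inhibitor genes outside the 8 differed between lines. Clu, which encodes clusterin, a fluid-phase inhibitor of the terminal complex, was at 171 ± 13.4 CPM in ZIP and 108 ± 10.5 CPM in Scr (log2 fold change 0.66 ± 0.09, adjusted p = 3.95e-06 in edgeR), and at 157 ± 10.9 CPM in ZIP+Cy and 84.8 ± 6.70 CPM in Scr+Cy. Susd4, a membrane inhibitor gene, was higher in ZIP than in Scr both without (0.71 ± 0.07) and with cytokines (0.62 ± 0.08). Cr1l encodes Crry, a rodent membrane inhibitor that acts on C3 convertases, and was at 40.4 ± 2.61 CPM in OE+Cy and 24.1 ± 0.719 CPM in Scr+Cy (0.75 ± 0.07, adjusted p = 7.98e-10 in edgeR). None of these genes was called higher with cytokines in any line.

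The genes whose log2 CPM followed a member most closely over the 24 libraries were sought among 12664 genes with a mean of at least 1 CPM. C1ra was closest to Nlrc5 (Pearson's r = 0.993) and H2-Q6 (0.991), Cfb to AW112010 (0.995) and Oasl2 (0.994), and Serping1 to Igtp (0.990) and B2m (0.990). C1s1 was closest to 9530082P21Rik (0.979) and Tap1 (0.977), and C3 to H2-Q7 (0.975) and H2-Q9 (0.972). C4b followed Tex14 (0.946) and Ppa1 (0.940) less closely, and Cd55 was closest to Prx (0.788) and Gpm6b (0.736). These correlations describe libraries that share 3 lines and 1 treatment, and cytokine treatment sets most of their size. Among the members, C1ra correlated with C1s1 at 0.977 and with C3 at 0.969, but with C4b at 0.724.

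Seed matches for miR-146a-5p in the wider list were in the 3′ UTRs of Cfi, C3ar1, Cr2 and Cd93, of which only Cd93 exceeded 1 CPM in any group mean. The window around the match, which starts at base 1155 of the 3′ UTR, is shown for Cd93 with the match in capitals.
Cd93: gtcatgaagaaAGTTCTCtctctctcttt
Its mean level was 5.68 ± 1.77 CPM in ZIP, 3.20 ± 0.618 CPM in OE and 2.42 ± 0.332 CPM in Scr (SD, n = 4). Without cytokines, Cd93 was called higher in ZIP (log2 fold change 1.23 ± 0.27, adjusted p = 0.000997 in edgeR). It was not called in OE (0.40 ± 0.27, adjusted p = 0.231 in edgeR). With cytokines its means were 1.87 CPM in ZIP+Cy, 0.723 CPM in OE+Cy and 1.47 CPM in Scr+Cy. There it was called lower in OE+Cy than in Scr+Cy (−1.03, adjusted p = 0.00816 in edgeR). Whether the seed match bears on these levels was not tested.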

How the data were processed

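The authors aligned reads to mm10 with STAR and counted them on RefSeq transcripts using Partek Flow. The submitters' processing notes give STAR 2.7.8a and Partek 11.0.24.0204 (the methods of the study name other versions). The quantification method and its use of strand are not given in the sources used here. The authors deposited estimated counts per gene, of which 30.3% were not whole numbers, after dropping genes under 10 reads summed over the libraries. The authors also deposited a normalized signal, made from the counts by median ratio scaling, which was not tested.

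Estimated counts were rounded to whole numbers, and 1 model of 6 group means was fitted to 24 libraries and 17696 genes in edgeR 4.0.16 (R 4.3.3) with TMM scaling, glmQLFit and glmQLFTest and no further filter. A gene was called at a fold of at least 1.5 and p under 0.05, interactions at an adjusted p under 0.05. The SE is the size of the log2 fold change divided by the square root of F. The script was tested on simulated data. Depth was 26657792 to 37168232 assigned reads per library, and a group was taken as at the detection limit where no library exceeded 3 reads, a limit that covers counting error only. Levels per kb used merged exons of GENCODE M21.

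The members and lists were chosen with earlier results of these data known. All 8 members were named, and of the other complement genes those with an adjusted p under 0.05 and a 1.5-fold change whose higher group averaged 1 CPM or more. C1qb, C1qc, Hc, C1rb, C1s2, C4a, Cfi, C3ar1, Cr2, Gbp2, Cxcl10, Irf1 and the neighbours of C4b were named after their values were seen. Log2 CPM for correlations used a prior count of 2.

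Alternatives were DESeq2 1.42.0 (Wald test), its size factors in edgeR, filterByExpr, a fit of only the groups compared, adjusted p values, the replicate number as a block, and leaving out each library. Same-numbered libraries were taken as paired where their deviations from the group means correlated at over 0.1 for all 4 numbers over 12670 genes, since the labels share the number without explaining it. This held for Scr+Cy and Scr (0.413 to 0.626), ZIP+Cy and ZIP (0.261 to 0.397), and OE+Cy and OE (0.162 to 0.455). It also held for ZIP and Scr (0.141 to 0.634) and for ZIP+Cy and Scr+Cy (0.191 to 0.37), but not for the other 4 comparisons. The main model left this pairing out, and only the fit with the replicate number as a block used it.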

Additional observations from a re-analysis of the deposited data

Results flagged for a closer look

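In 43 combinations of gene and group above the detection limit, the highest or lowest of the 4 libraries was compared with the others, a check that marks about 1 group in 20 by chance. It marked 8. For 4 of them the library was ZIP library 4, which held 2.62 CPM of C1ra (0.0732 to 0.372 in the others), 2.32 CPM of C4b (0.109 to 0.293), 7.26 CPM of Cfb (0.732 to 1.64) and 26.2 CPM of Serping1 (3.0 to 4.99). Scr library 3 held 1.63 CPM of C3 (0.862 to 0.971 in the others). OE library 4 held 0.851 CPM of Serping1 (0.49 to 0.544). ZIP library 1 held 1.10 CPM of Cd55 (0.0729 to 0.235) and 0.732 CPM of Cd59a (0 to 0.101).

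The cytokine response of C4b in OE differed from that in Scr by −6.19 on the log2 scale, as tested by the interaction. Most of this is the untreated difference of OE from Scr (5.51).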

How the results depend on the processing

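Of 88 values (8 genes in 9 comparisons and 2 interactions), none that was called under either setting changed direction. DESeq2's size factors moved no call. With DESeq2, the number of members called changed by more than 1.5 times in ZIP versus Scr (0 for 2). It also did so in ZIP+Cy versus Scr+Cy (2 for 6) and OE+Cy versus Scr+Cy (3 for 5). Serping1 had no adjusted p value in DESeq2. Calls lost besides Serping1 were Cd59a in ZIP versus Scr, and C1s1, C4b and Cfb in ZIP+Cy versus Scr+Cy. In OE+Cy versus Scr+Cy, where edgeR had not called Serping1, the calls of C1s1 and C4b were lost. In OE versus Scr the number stayed at 4, with C1s1 in place of Serping1. It changed with filterByExpr in ZIP versus Scr (1, as Cd59a was not tested). With adjusted p values it was 1 in ZIP versus Scr, 2 in OE versus Scr and 3 in ZIP+Cy versus Scr+Cy. With only the groups compared it was 2 in the OE interaction, C1s1 and Cd55 were added in OE versus Scr, and Cd55 in ZIP+Cy versus Scr. When each library was left out it ranged from 1 to 5 in OE versus Scr, 3 to 5 in OE+Cy versus Scr+Cy and 1 to 2 in the OE interaction. Without Scr library 1, ZIP library 1 and Scr+Cy library 1, an alternative chosen after seeing the data, 5 member calls were lost and 2 gained. Without ZIP library 4 and Scr library 3, also chosen after seeing the data, 1 was lost, that of C3 in OE versus Scr.

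Of all genes, the ZIP interaction called 10 in edgeR, 41 in DESeq2 and 45 with the replicate block. The OE interaction called 3537, and 1517 with a fold of at least 1.5 added. Beside the calls given above, the replicate block added C1ra in OE+Cy versus Scr+Cy (−0.66, adjusted p = 0.0124), where the numbers did not pair, and changed no other member call. Low read numbers, at most 90 per library for Cd55 and 20 for Cd59a, limit what can be seen of these genes.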
